A study of Mus musculus with 12 samples.

Results

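Interleukins are secreted proteins through which immune cells signal, and the strength of that signal is set by receptor chains on the receiving cell and by soluble or competing proteins that keep a ligand from its receptor. The 10 transcripts described here, taken from the deposited table by their gene symbols, cover both sides of that balance: the ligands Il1b, Il18 and Il15, the antagonist Il1rn, the secreted decoy Il18bp, and the receptor chains Il15ra, Il2rg, Il10ra, Il10rb and Il6ra. All 10 were found among the 19852 genes of the table. The ligands IL-1 beta and IL-18 are made as inactive precursors that caspase-1 cleaves. IL-18 binding protein captures IL-18, the IL-1 receptor antagonist occupies the IL-1 receptor without signalling, and IL-15 is shown to neighbouring cells on its own alpha chain. In liver, Kupffer cells, which are the resident macrophages, are a known source of IL-1 beta and IL-18, and hepatocytes carry the IL-6 receptor through which acute phase genes are induced.

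Liver RNA was sequenced from C57BL/6 mice aged 20 weeks. There were 4 groups of 3 libraries, namely female ARE-Del, female WT, male ARE-Del and male WT, the WT mice being control littermates. In ARE-Del mice the AU-rich element is deleted from the end of the Ifng transcript. The element normally speeds decay of the mRNA, and without it interferon-gamma is made chronically. The protocol text writes the mutant as ARE-Del-/-. The allele is carried in the germ line, so its effect is not limited to 1 cell type, and the labels name no other allele, treatment or pooling. Nothing in the labels beyond n = 3 says that the samples are separate animals, so p-values measure the spread between these samples.

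Ifng was low, as listed, in all libraries. It read 0.208, 0.0898 and 0.238 RPKM (reads scaled to transcript length and library total) in female ARE-Del libraries, against 0.0208, 0.011 and 0.00957 RPKM in female WT. The male ARE-Del libraries had 0.0978, 0.123 and 0.0742 RPKM, against 0.0382, 0 and 0 RPKM in male WT, so in each sex the ARE-Del libraries lay above the WT libraries. Ddx3y, a Y-linked gene, was at 0 in the 6 female libraries and between 9.34 and 13.5 RPKM in the 6 male libraries. Xist, an RNA made from the inactive X chromosome, was at 0.0456 RPKM in the library labelled female ARE-Del 2 and at 33.0 to 45.6 RPKM in the other female libraries, so the calls of the members and the counts of further genes are also given without it, while ratios and marker sums include it. Albumin, the defining hepatocyte product, was between 16200 and 34500 RPKM. Estimated depth ran from 0.908 to 1.45 times that of female WT 1, from the commonest ratio of low values.

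Of the 10 members, 9 had at least 0.5 RPKM in at least 3 libraries and were tested with limma on log2(RPKM + 1), together with all 10568 genes that passed that filter. Il15 stayed below it. Il1b passed it through the ARE-Del libraries, the genotype where it was high, and of the WT libraries only female WT 3 reached 0.5 RPKM (0.506). In females 8 of the 9 tested members rose at a Benjamini-Hochberg adjusted p below 0.05 and none fell, with a median change of 1.24 on the log2 scale. Over all tested genes 25.8% were called up in females and the median change was 0.09. In males 7 of the 9 rose and none fell, with a median of 0.70, where 19.5% of all tested genes were called up and the median gene changed by 0.10. The values of the 3 ARE-Del libraries all exceeded those of the 3 WT libraries for 9 of the 10 members in females, and for 8 of the 10 in males. Such separation was seen in 34.9% of all tested genes in females and 36.1% in males. The member counts include Il15, apart in both sexes, which is not among the tested genes. Without the library labelled female ARE-Del 2 the same 8 members were called in females, with Il6ra the nearest to the threshold (limma adjusted p = 0.035), and so were the 6 members called between ARE-Del females and males below.

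**Figure D1:**
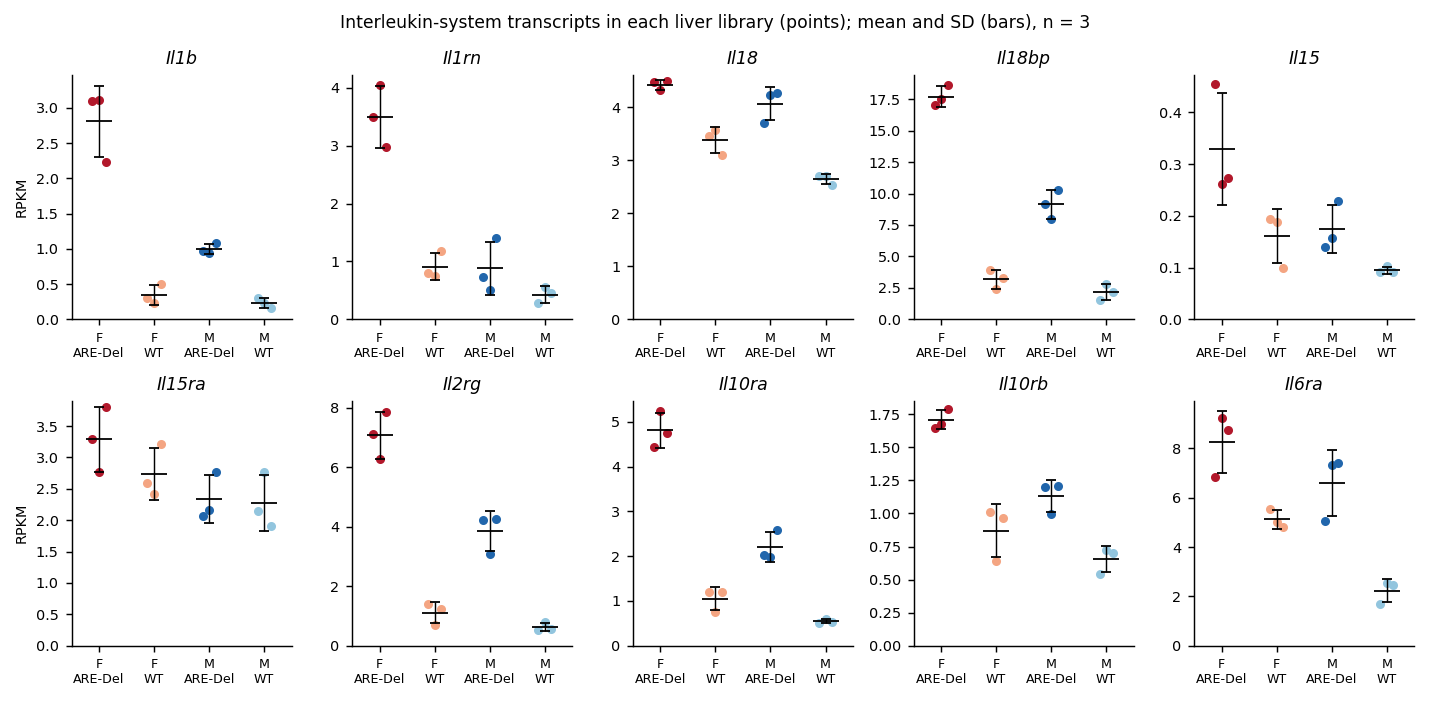
RPKM (vertical axis, from 0) of each of the 10 transcripts in the 4 groups of 3 liver libraries, points being libraries and bars the mean and SD. Il18bp ran from 17.0 to 18.6 RPKM in female ARE-Del libraries and from 2.4 to 3.89 RPKM in female WT, while the Il15ra groups overlapped in both sexes.

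The promoters of Il1b and Il18bp are shown because these transcripts had the largest ratios of ARE-Del to WT among the IL-1 and IL-18 members in females. The sequences are the 250 bases before the transcription start in RefSeq on GRCm38.p6, a later build than the mm9 assembly of the expression table, and 7 of the 10 members had an entry there. Il1b lies at chr2:129371140-129371389 and Il18bp at chr7:102018233-102018482, both on the minus strand and both printed 5' to 3' along the gene. Capitals mark TATAAA in Il1b, from -31 to -26, and TTGCGNAA, a C/EBP-type motif, in Il18bp, from -49 to -42, counting back from -1 at the base before the start.
Il1b: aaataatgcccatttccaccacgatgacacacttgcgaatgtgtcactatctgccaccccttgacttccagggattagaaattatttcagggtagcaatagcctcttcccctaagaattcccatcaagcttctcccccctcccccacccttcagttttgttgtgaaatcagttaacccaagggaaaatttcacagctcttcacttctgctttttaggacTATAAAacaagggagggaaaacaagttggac
Il18bp: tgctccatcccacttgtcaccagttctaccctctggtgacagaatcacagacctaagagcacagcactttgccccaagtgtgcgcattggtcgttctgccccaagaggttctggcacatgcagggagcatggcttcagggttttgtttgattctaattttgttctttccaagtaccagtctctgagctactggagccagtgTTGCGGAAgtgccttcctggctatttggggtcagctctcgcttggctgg
Searched on both strands, TATAAA occurs in 12.4% of the 32851 RefSeq windows of that length and TTGCGNAA in 0.67%. TATAAA was also found in the window of Il18. The gamma-interferon motif TTCNNNGAA (GAS) occurs in 7.02% of all windows and the interferon-stimulated motif (ISRE, GAAA and GAAA with any 2 bases between) in 2.98%, and neither was found in the 10 windows of the 7 members. These are matches of letters only, and their absence says only that these letters are not in this window.

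Among the IL-1 members, Il1b, an inflammatory ligand, rose in both sexes. Its RPKM was 3.1, 3.11 and 2.23 in female ARE-Del libraries, against 0.296, 0.226 and 0.506 in female WT. In males it was 0.975, 0.943 and 1.08 RPKM in ARE-Del, against 0.3, 0.236 and 0.159 in WT. The ARE-Del and WT libraries did not overlap in either sex, and the male ARE-Del libraries lay below all female ARE-Del libraries. The female ARE-Del mean was 8.21 times the female WT mean (log2 change 1.50 ± 0.10 SE on the RPKM + 1 scale, limma adjusted p = 6.5e-07). The male ARE-Del mean was 4.32 times the male WT mean (0.70 ± 0.10, limma adjusted p = 0.00037). Because 1 is added before the log, these changes understate the ratios of a gene this low. With 0.1 added in place of 1 they were 2.75 and 1.75.

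Il1rn encodes the antagonist that competes with IL-1 at its receptor. It was at 3.49, 4.04 and 2.97 RPKM in female ARE-Del libraries, against 0.795, 0.753 and 1.18 RPKM in female WT, a log2 change of 1.24 ± 0.15 (limma adjusted p = 5.6e-05). In males it was at 0.728, 0.513 and 1.4 RPKM in ARE-Del and at 0.279, 0.557 and 0.45 RPKM in WT, and these groups overlapped. The male change of 0.37 ± 0.15 did not pass (limma adjusted p = 0.10), though it did without male ARE-Del 2 (adjusted p = 0.039). Within a library, the ratio of Il1rn to Il1b RPKM was 1.13 to 1.33 in female ARE-Del and 2.32 to 3.34 in female WT. In males the ratio was 0.544 to 1.29 in ARE-Del and 0.932 to 2.82 in WT, where the ranges overlapped. The antagonist therefore stood closer to its ligand in female ARE-Del libraries than in any female WT library. No test was made of these ratios.

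Il18 and its decoy behaved unequally. Il18 had 4.48, 4.33 and 4.49 RPKM in female ARE-Del libraries, against 3.47, 3.57 and 3.11 RPKM in female WT, a log2 change of 0.31 ± 0.06 (limma adjusted p = 0.0028). The male ARE-Del libraries had 3.71, 4.23 and 4.28 RPKM, against 2.7, 2.71 and 2.54 RPKM in male WT (0.48 ± 0.06, limma adjusted p = 0.00028). The groups were apart in both sexes but by small amounts, 1.31 and 1.54 times the WT mean. The female call ended under other scalings of the libraries, with adjusted p = 0.059 by median-of-ratios and 0.083 by quantile normalization. Il18bp, which binds IL-18 in the fluid phase, reached 17.0, 17.5 and 18.6 RPKM in female ARE-Del libraries, against 3.89, 2.4 and 3.26 RPKM in female WT. In males it had 9.13, 7.99 and 10.3 RPKM in ARE-Del, against 1.56, 2.78 and 2.17 RPKM in WT. Its change in log2(RPKM + 1) was 2.18 ± 0.15 in females (limma adjusted p = 7.7e-07) and 1.69 ± 0.15 in males (limma adjusted p = 1.3e-05), the largest of the 9 tested members on that scale. As a ratio of means it was 5.57 in females and 4.21 in males, below both Il1b and Il2rg in each sex. The decoy was thus 3.79 to 4.15 times as abundant per length as Il18 in female ARE-Del libraries, against 0.673 to 1.12 times in female WT. In males this ratio was 1.89 to 2.46 in ARE-Del and 0.578 to 1.03 in WT, with no overlap in either sex.

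**Figure D2:**
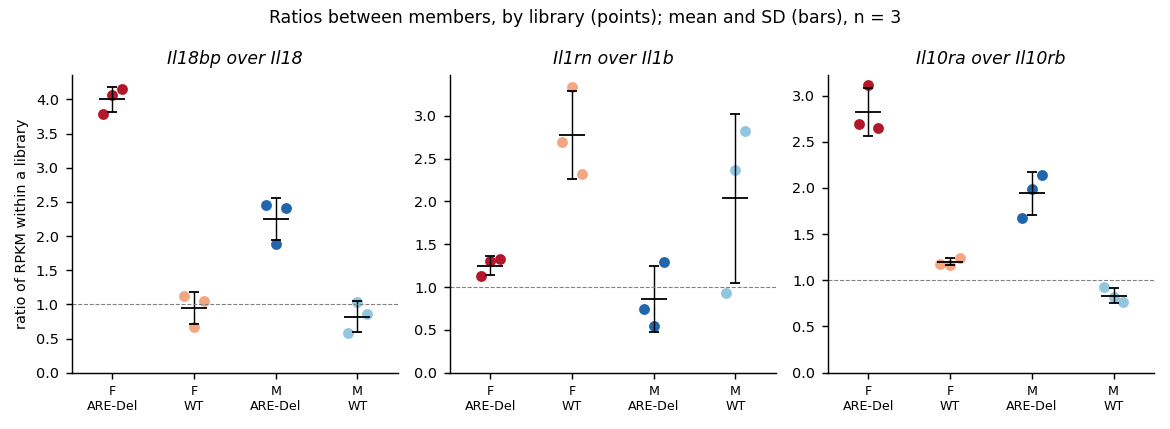
Ratio of RPKM between members within each library (vertical axis, from 0; dashed line at 1) in the 4 groups, points being libraries and bars the mean and SD. Il18bp over Il18 averaged 4.0 in female ARE-Del and 0.947 in female WT, Il1rn over Il1b averaged 1.25 and 2.78 in those groups, and Il10ra over Il10rb averaged 2.82 and 1.20.

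Il15, which sustains natural killer and memory CD8 T cells, was the lowest member. Its RPKM was 0.455, 0.262 and 0.274 in female ARE-Del libraries, against 0.195, 0.189 and 0.1 in female WT, and 0.14, 0.157 and 0.228 in male ARE-Del libraries, against 0.0915, 0.103 and 0.0913 in male WT. ARE-Del lay above WT in both sexes. Over both sexes the mean difference in log2(RPKM + 1) was 0.15, with p = 0.005 in a 2-sided exact permutation test that exchanged genotypes inside each sex, the lowest p that 400 arrangements allow. It was 0.17 without the library labelled female ARE-Del 2. Within 1 sex the exact test of 3 against 3 libraries cannot go below 0.10. After quantile normalization the difference was 0.07 and the exact p was 0.12. Il15ra, the chain that presents IL-15, was at 3.3, 2.77 and 3.8 RPKM in female ARE-Del libraries and at 2.6, 2.42 and 3.21 RPKM in female WT. In males it had 2.07, 2.17 and 2.77 RPKM in ARE-Del and 2.14, 2.77 and 1.91 RPKM in WT. The groups overlapped in both sexes, and neither change passed (0.20 ± 0.12 in females, limma adjusted p = 0.25; 0.03 ± 0.12 in males, limma adjusted p = 0.88). The male change was -0.08 by median-of-ratios scaling and -0.12 by quantile normalization, neither of which passed.

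Il2rg encodes the common gamma chain, shared by the receptors for IL-2, IL-4, IL-7, IL-9, IL-15 and IL-21. It was at 7.12, 6.26 and 7.84 RPKM in female ARE-Del libraries, against 1.39, 0.704 and 1.23 RPKM in female WT. The male ARE-Del libraries had 4.23, 3.08 and 4.26 RPKM, against 0.543, 0.782 and 0.552 RPKM in male WT. The ratios to WT were close in the 2 sexes, 6.39 in females (log2 change 1.95 ± 0.13, limma adjusted p = 7.7e-07) and 6.17 in males (1.57 ± 0.13, limma adjusted p = 8.9e-06). The difference between the sexes in that change was 0.37 ± 0.19 (limma adjusted p = 0.50), which does not show that the responses are alike.

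The receptor for IL-10, a cytokine that restrains macrophages, is built from Il10ra, which binds the ligand, and Il10rb, which is shared with other IL-10 family receptors. Il10ra had 4.44, 5.23 and 4.75 RPKM in female ARE-Del libraries, against 1.19, 0.75 and 1.2 RPKM in female WT. In males it had 2.02, 1.99 and 2.59 RPKM in ARE-Del, against 0.506, 0.589 and 0.534 RPKM in WT. Both changes passed, at 1.51 ± 0.10 in females (limma adjusted p = 6.2e-07) and 1.05 ± 0.10 in males (limma adjusted p = 1.9e-05), and no ARE-Del library overlapped WT. Il10rb had 1.65, 1.68 and 1.79 RPKM in female ARE-Del libraries, against 1.01, 0.639 and 0.964 RPKM in female WT. It had 1.2, 0.996 and 1.21 RPKM in male ARE-Del libraries, against 0.546, 0.722 and 0.703 RPKM in male WT. Its rises were smaller, 0.54 ± 0.08 in females (limma adjusted p = 0.00024) and 0.37 ± 0.08 in males (limma adjusted p = 0.0068). The ratio of Il10ra to Il10rb was 2.65 to 3.11 in female ARE-Del and 1.17 to 1.24 in female WT, and 1.68 to 2.14 in male ARE-Del and 0.76 to 0.928 in male WT.

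Il6ra, the ligand-binding chain for IL-6, had the larger change in males. It was at 5.07, 7.35 and 7.41 RPKM in male ARE-Del libraries, against 1.68, 2.56 and 2.45 RPKM in male WT (log2 change 1.23 ± 0.15, limma adjusted p = 0.00011). In females it was at 6.83, 9.23 and 8.74 RPKM in ARE-Del, against 5.55, 5.0 and 4.81 RPKM in WT (0.59 ± 0.15, limma adjusted p = 0.0084). All ARE-Del libraries lay above WT of the same sex, but the lowest male ARE-Del value fell among the female WT values. Female minus male change was -0.64 ± 0.21 and did not pass (limma adjusted p = 0.21). Il6, its ligand, had at most 0.0232 RPKM in any library.

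**Figure D3:**
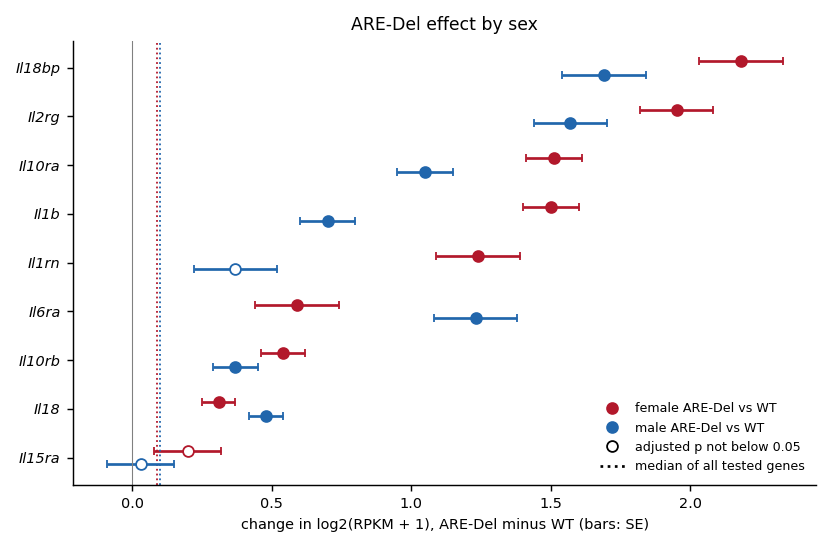
Change in log2(RPKM + 1), ARE-Del minus WT (horizontal axis, bars SE), of the 9 tested members in females and males, filled where the limma adjusted p was below 0.05, with the median of all tested genes dotted. The female change was the larger for Il18bp (2.18, against 1.69 in males) and Il1b (1.50, against 0.70), and the male change for Il6ra (0.59 in females, 1.23 in males) and Il18 (0.31, against 0.48). The female minus male difference did not pass for Il18bp (0.49 ± 0.21, limma adjusted p = 0.39), Il6ra (-0.64 ± 0.21, 0.21) or Il18 (-0.16 ± 0.09, 0.56).

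The series also set females against males. The ARE-Del effect itself differed between the sexes for 1 of the 9 tested members, Il1b (female minus male change 0.80 ± 0.14, limma adjusted p = 0.038), where 0.435% of all tested genes were called up in this interaction. That call was kept without female ARE-Del 3, without female WT 3 or without male ARE-Del 3. It was lost without each of the 9 remaining libraries in turn, with the change at 0.74 to 0.84 and adjusted p between 0.054 and 0.13. It was also lost with a pseudocount of 0.1 (adjusted p = 0.38), with no filter (0.082) and under median-of-ratios scaling (0.063). Il1rn came next at 0.87 ± 0.22 (limma adjusted p = 0.099), and passed only without male ARE-Del 3 (adjusted p = 0.029).

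Between ARE-Del females and ARE-Del males, 6 of the 9 tested members were higher in females, where 16.4% of all tested genes were called up. They were Il1rn (1.28 ± 0.15, limma adjusted p = 0.00018), Il1b (0.92 ± 0.10), Il18bp (0.89 ± 0.15), Il10ra (0.86 ± 0.10), Il2rg (0.74 ± 0.13) and Il10rb (0.34 ± 0.08), the last with the largest adjusted p of these, 0.009. Il15ra (0.36 ± 0.12, adjusted p = 0.054), Il6ra (0.29 ± 0.15) and Il18 (0.10 ± 0.06) did not pass. Il15ra did so without female ARE-Del 2, female WT 3, male ARE-Del 3 or male WT 2, with adjusted p from 0.032 to 0.047. Between WT females and WT males, 3 of 9 were higher in females, where 6.72% of all tested genes were called up. Il6ra was the clearest, at 0.93 ± 0.15 (limma adjusted p = 0.0017), with a female WT mean of 5.12 ± 0.388 RPKM and a male WT mean of 2.23 ± 0.476 RPKM (SD, n = 3 each). Il18 (0.26 ± 0.06, adjusted p = 0.023) and Il10ra (0.40 ± 0.10, adjusted p = 0.024) also passed. Both calls ended without female WT 1, male WT 1 or male WT 3. That of Il18 also ended without female WT 2, and that of Il10ra without female WT 3. With the replicate number as a block both calls were lost too (limma adjusted p = 0.085 for Il18 and 0.058 for Il10ra). The Il18 call was further lost by quantile normalization and in a fit of the WT groups alone (0.06), and that of Il10ra with no filter (0.065). Without female WT 2, Il18bp, Il2rg and Il10rb passed as well. Il1rn passed without male ARE-Del 3 (limma adjusted p = 0.042) and in the fit of the WT groups alone (0.04).

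For all 10 members the female ARE-Del group had the highest mean. The second place was held by male ARE-Del, except for Il1rn and Il15ra, where female WT stood second by a margin within the spread of the libraries. Male WT was lowest in all 10. Ranges of neighbouring groups overlapped at 1 step or more for 8 members, and all 4 groups were apart for Il18 and Il10ra alone. The share of all tested genes with such an order or such gaps was not computed. The order is therefore given as description only, not as a trait of these members. RPKM is scaled to length, so levels can be set side by side. Il18bp was the most abundant member in both ARE-Del groups, with a mean of 17.7 ± 0.818 RPKM in females and 9.15 ± 1.16 RPKM in males (SD, n = 3 each). In WT livers of females the most abundant was Il6ra at 5.12 ± 0.388 RPKM, and in WT males Il18 at 2.65 ± 0.0954 RPKM.

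Markers of several leukocyte types rose beside these members. By limma, 10 of 10 tested Kupffer cell markers were called up in each sex, 7 of 7 monocyte and macrophage markers in females and 6 of 7 in males, and 5 of 5 T cell markers in females and 4 of 5 in males. Natural killer and cytotoxic cell markers were called up in 5 of 5 in females and 4 of 5 in males, neutrophil markers in 2 of 3 in females and 1 of 3 in males, and B and plasma cell markers in 2 of 4 in each sex. The 1 tested dendritic cell marker was called up in each sex. In every WT library the 5 tested T cell markers and this dendritic cell marker, Xcr1, were below 0.5 RPKM. So were Gzma, Gzmb, Klrk1, Klrd1, Ccr2, Itgax, Cx3cr1, Cd79b and, among the stellate cell markers, Col1a1. All of these passed the filter only through ARE-Del libraries, where they were high, so a rise was favoured by their selection. Endothelial markers were called up in 2 of 7 in females and 1 of 7 in males. Stellate cell markers were so in 3 of 6 in females and 1 of 6 in males, and cholangiocyte markers in 1 of 2 in each sex. Over all tested genes 25.8% were called up in females and 19.5% in males. The endothelial counts in both sexes and the stellate count in males lay near these shares. The summed RPKM of 8 monocyte and macrophage markers in the table, of 10 listed, was 164 to 205 in female ARE-Del libraries and 18.4 to 29.3 in female WT, and 96.3 to 120 in male ARE-Del and 12.7 to 24.5 in male WT. That of 10 Kupffer cell markers was 608 to 722 in female ARE-Del and 121 to 210 in female WT, and 334 to 408 in male ARE-Del and 85.1 to 140 in male WT. For 10 T cell markers the sums were 4.28 to 7.85 and 0.577 to 1.75 in those female groups, and 2.41 to 4.29 and 0.725 to 1.03 in the male groups, and for 9 natural killer and cytotoxic cell markers 8.83 to 12.1 and 1.51 to 2.49 in females, and 6.04 to 8.22 and 0.815 to 1.48 in males. Neutrophil markers (6 of 7 in the table) summed to 5.22 to 13.2 in female ARE-Del and 1.94 to 5.95 in female WT, and to 2.49 to 5.9 in male ARE-Del and 1.37 to 3.65 in male WT. The sums of B and plasma cell markers overlapped in females, with 48.7 to 64.9 in ARE-Del and 43.3 to 65.2 in WT. In males they were 36.4 to 40.4 in ARE-Del and 26.6 to 35.6 in WT. These sums are mostly Sdc1, with a mean of 50.9 RPKM in female ARE-Del and 52.8 RPKM in female WT, so they say little of the others. Igj (1.11 ± 0.28) and Cd79b (0.55 ± 0.09) were called up in females, and Cd79a (0.17 ± 0.07) and Sdc1 (-0.05 ± 0.16) were not. In males the pair differed, with Igj (1.07 ± 0.28) and Cd79a (0.41 ± 0.07) called up, and Cd79b (0.18 ± 0.09) and Sdc1 (0.22 ± 0.16) not. No marker of these lists was at 0 in every library. In bulk RNA, more cells of a type and more RNA per cell cannot be told apart, and the part of these cells in the changes of the members was not tested. Of 7 tested hepatocyte markers, Apoa1 was called up (0.82 ± 0.14) and Cyp2e1 down (-0.81 ± 0.15) in females, with a median of -0.00, and 4 were called up in males, with a median of 0.44. Their sum, which is mostly Alb (0.30 ± 0.13 in females, limma adjusted p = 0.11), came to 38500 to 40500 RPKM in female ARE-Del and 32400 to 34300 in female WT, and to 22200 to 31100 in male ARE-Del and 22700 to 23300 in male WT.

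The genes whose profile over the 12 libraries lay nearest to each member were taken by the root mean square difference of log2(RPKM + 1), each gene centred on its own mean. For Il18bp they were the complement chains C1qc (0.127) and C1qa (0.13), which Kupffer cells express, and the Fc receptor chain Fcer1g (0.134). For Il2rg they were the macrophage protein Aif1 (0.0841), thymosin beta 4 Tmsb4x (0.105) and the formyl peptide receptor Fpr1 (0.107). For Il10ra they were Pilra (0.0952), the haematopoietic actin regulator Nckap1l (0.106) and the leukocyte phosphatase Ptprc (0.11), and for Il1b they were Asb2 (0.149), Pilra (0.152) and Evl (0.152). Il18 lay nearest to Rbck1 (0.0783), Lrrfip1 (0.0797) and Rfwd3 (0.0829), and Il10rb to the lysosomal mannosidase Man2b1 (0.0284), Zeb2 (0.0294) and Rap1b (0.0508). Il6ra was nearest to the gluconeogenic enzyme Pck1, at 0.20, and then to Rasgef1b (0.205) and Prhoxnb (0.209). These were the largest distances among the 7 members called in both sexes, for which nearest genes were sought. Smaller differences are easier to reach for members that vary little, such as Il10rb.

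The wider interleukin system was read from 112 further entries, of which 91 had a row in the table and 44 were tested. In females 33 of the 44 rose and none fell (median 0.50), against the 25.8% of all tested genes called up. In males 27 of the 44 rose and none fell (median 0.31), against 19.5%. Without the library labelled female ARE-Del 2 these counts were 28 and 22, from fewer than 44 tested genes. Il21r, Nlrp1b, Nlrp3 and Irak3 reached 0.5 RPKM only in the 3 female ARE-Del libraries, so without that library they fell below the filter and were not tested. Of the other calls named below, those of Il17rb in females and Il17rc in males were lost. A gene can pass the filter through the group where it is high, so these counts lean towards rises. Median-of-ratios scaling left 29 rises in females and 21 rises with 1 fall in males, and quantile normalization left 27 and 14 rises, with 2 falls in each sex.

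Of 13 tested genes that process IL-1 beta and IL-18 or carry their signal, 11 rose in females and 10 in males. Casp1, the protease that matures both ligands, had 4.48, 2.91 and 4.27 RPKM in female ARE-Del libraries, against 0.727, 0.511 and 0.849 RPKM in female WT (1.52 ± 0.11, limma adjusted p = 1.2e-06). In males it had 2.61, 2.25 and 2.32 RPKM in ARE-Del, against 0.416, 0.495 and 0.462 RPKM in WT (1.22 ± 0.11, limma adjusted p = 2e-05). The inflammasome adaptor Pycard (1.40 ± 0.16 in females and 1.25 ± 0.16 in males) and the DNA sensor Aim2 (1.06 ± 0.09 and 0.48 ± 0.09) also rose in both sexes. None of the 3 tested IL-1 family receptors was called in either sex by limma, and at an unadjusted p below 0.05 there were 0 in females and 1 in males. The signalling receptor Il1r1 was at 1.93, 4.33 and 3.36 RPKM in female ARE-Del libraries and 2.17, 1.67 and 2.25 RPKM in female WT, and at 5.16, 9.09 and 3.6 RPKM in male ARE-Del and 4.2, 2.79 and 1.67 RPKM in male WT, with overlap in both sexes. The IL-18 receptor chains Il18r1 and Il18rap had at most 0.207 RPKM in any library and were not tested. The ligand Il1a rose in females (0.51 ± 0.13, limma adjusted p = 0.011), while in males its change was 0.35 ± 0.13 (adjusted p = 0.079). The female call ended without female ARE-Del 3 (adjusted p = 0.051), and without female WT 2 the male change passed.

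Chains that pair with the common gamma chain, or with IL-4 receptor alpha, rose in 4 of 4 tested genes in females and in 3 of 4 in males. Il2rb, which joins Il2rg in the IL-2 and IL-15 receptors, had 2.17, 1.68 and 2.18 RPKM in female ARE-Del libraries, against 0.881, 0.524 and 0.788 RPKM in female WT (0.80 ± 0.09, limma adjusted p = 2.2e-05). In males it had 1.16, 1.12 and 1.3 RPKM in ARE-Del, against 0.31, 0.451 and 0.412 RPKM in WT (0.66 ± 0.09, limma adjusted p = 0.00027). Il21r averaged 0.729 ± 0.112 RPKM in female ARE-Del and 0.0477 ± 0.0253 RPKM in female WT, and 0.255 ± 0.0778 RPKM in male ARE-Del and 0.0224 ± 0.0109 RPKM in male WT (SD, n = 3 each). Il4ra rose by 0.51 ± 0.11 in females and by 0.34 ± 0.11 in males, the male call being lost in 10 of 20 alternatives, among them both other scalings and the absence of any male WT library. The cytokines of this group, Il2, Il4, Il7, Il21 and Tslp, stayed below 0.5 RPKM in every library. Il7 was at 0.306, 0.161 and 0.194 RPKM in female ARE-Del libraries, against 0.0607, 0.114 and 0.0186 RPKM in female WT, and at 0.133, 0.13 and 0.129 RPKM in male ARE-Del, against 0.0297, 0.0371 and 0.0264 RPKM in male WT.

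Of the remaining groups, 4 tested receptor chains of the IL-3, IL-5 and GM-CSF group and 2 other interleukins of the same list, Il16 and 2010004A03Rik (an older symbol of Il34), rose in both sexes, led by the receptor chains Csf2ra (1.29 ± 0.10 in females and 0.65 ± 0.10 in males), Csf2rb2 (1.12 ± 0.09 and 0.57 ± 0.09) and Csf2rb (1.11 ± 0.10 and 0.61 ± 0.10). Csf2rb and Csf2rb2 are close copies, so the split of reads between them is uncertain. Of 2 tested IL-6 family ligands 1 rose in both sexes, Ebi3, a subunit of IL-27 and IL-35 (1.15 ± 0.08 in females and 0.68 ± 0.08 in males). The shared signalling chain Il6st rose by 0.37 ± 0.13 in females (limma adjusted p = 0.043), and its male change of 0.37 ± 0.13 did not pass (adjusted p = 0.057). The female call was lost in 13 of 20 alternatives and the male change passed in 5 of 20, so the sexes cannot be ordered here. Il22ra1, which pairs with Il10rb to bind IL-22, was called in males (0.47 ± 0.09, limma adjusted p = 0.0041) and not in females (0.12 ± 0.09, adjusted p = 0.35). The difference between those changes did not pass (-0.34 ± 0.13, adjusted p = 0.32). JAK, STAT and SOCS genes rose in 7 of 9 in females and 5 of 9 in males, with Stat3, which IL-6 and IL-10 activate, at 0.76 ± 0.10 and 0.42 ± 0.10, the male call being lost under both other scalings. Socs3, its feedback inhibitor, rose by 0.78 ± 0.15 in females (limma adjusted p = 0.0019) and changed by 0.42 ± 0.15 in males, where it did not pass (adjusted p = 0.069) except without male ARE-Del 3. IL-17 family receptors rose in 2 of 3 in females, Il17ra (0.42 ± 0.07) and Il17rb (0.48 ± 0.14), and in 1 of 3 in males, Il17rc (0.28 ± 0.09). The calls of Il17rb and Il17rc were lost in 7 and 9 of 20 alternatives. Il10 was at 0.141, 0.58 and 0.308 RPKM in female ARE-Del libraries, against 0.0584, 0 and 0.0806 RPKM in female WT, and at 0.125, 0.0737 and 0.312 RPKM in male ARE-Del, against 0.0215, 0 and 0.0285 RPKM in male WT. It was below the filter and was not tested.

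**Figure D4:**
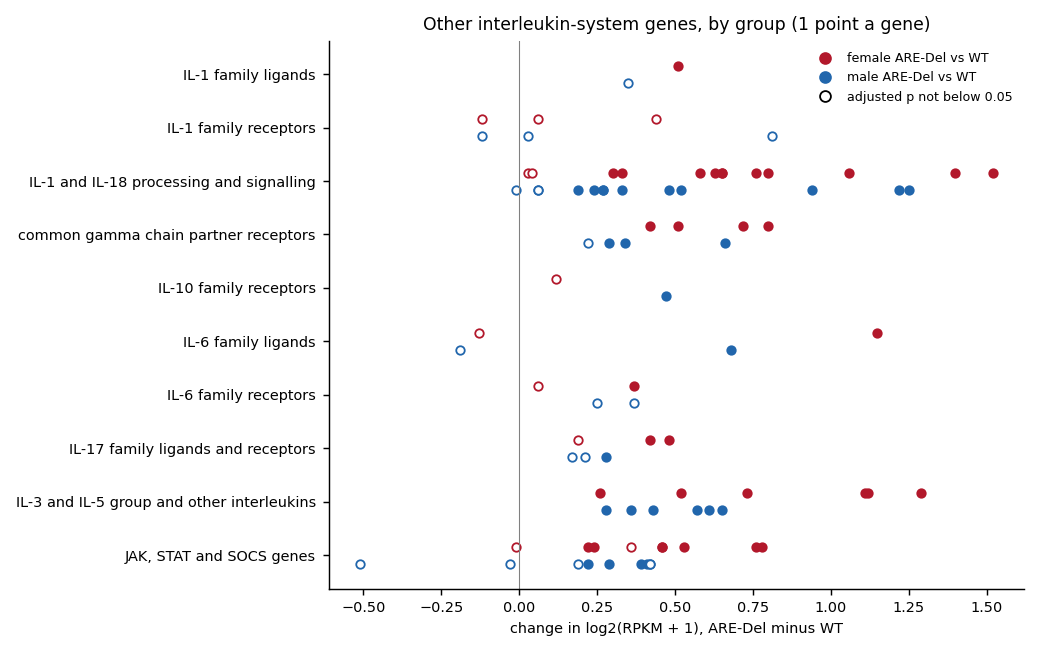
Change in log2(RPKM + 1), ARE-Del minus WT (horizontal axis), of the 44 tested genes of the wider interleukin system by group, 1 point for each gene and sex, filled where the limma adjusted p was below 0.05. The largest female changes were in Casp1 (1.52), Pycard (1.40) and Csf2ra (1.29), and no IL-1 family receptor was called in either sex.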

How the data were processed

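The authors deposited RPKM for 19852 genes in 12 liver libraries. Per the submitters' processing notes, Trimmomatic 0.30, TopHat2 2.0.8, Partek and GenomeStudio 6.6 were used with mm9. How reads were counted, the annotation and the use of strand were not given in the sources used here. Per the labels' protocols, libraries were made from 1 ug of total RNA with an Illumina TruSeq kit. Read totals were not used here, so no counting intervals are given. Summed RPKM ran from 173476 to 208647 per library.

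Genes with at least 0.5 RPKM in at least 3 libraries (10568) were fitted as 4 group means with limma 3.58.1 in R 4.3.3 on log2(RPKM + 1), by eBayes with a trend. Calls were made at 0.05 after Benjamini-Hochberg adjustment, separately in 5 comparisons. The fit was also run on simulated independent values, with no filter applied in that run. That run does not test the filter, the scalings or the calls made here. Errors are SE for log2 changes and SD for RPKM. Il15, below the filter, was tested by exact permutation. Members and lists were chosen with earlier results of these data known. Named were all 10 members, the 3 nearest genes of each member called in both sexes, and, for each further list, up to 3 genes called in either sex with the largest female change. Genes given with values outside this rule (Il1r1, Il6, Il7, Il10, Il13ra2, Il16, Il18r1, Il18rap, Nlrp1b, 2010004A03Rik, Apoa1, Cyp2e1, Igj, Cd79a, Cd79b, Sdc1) were named after their values were seen. Of 112 further entries, 89 matched by symbol and 2 by an older symbol, while 3 were merged with another gene and 18 had no row. Of 83 marker entries 79 matched. Alternatives were another pseudocount, 2 other filters, 2 scalings, no trend, 2-group fits, the replicate number as a block, and leaving out each library. Tables were made with pandas 2.3.3 and numpy 2.4.6 in Python 3.11.15, and plots with matplotlib 3.10.9.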

Additional observations from a re-analysis of the deposited data

Results flagged for a closer look

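The ARE-Del effect on Il1b was larger in females than in males by 0.80 on the log2(RPKM + 1) scale, a difference between the sexes that passed the interaction test (limma, Benjamini-Hochberg adjusted p = 0.038). It was higher in 3 of 3 female ARE-Del libraries than in any male ARE-Del library, and the WT libraries of both sexes overlapped. The change held its sign in all 18 alternatives but its call in 5 of them, with adjusted p from 0.032 to 0.38. Whether this follows the amount of a leukocyte type was not tested.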

How the results depend on the processing

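The 881 alternative values of single members kept direction and call in 838 cases. Of the others 11 gained a call, 28 lost one, and 4 turned round, all of Il15ra in males (-0.08 by median-of-ratios, -0.12 by quantile normalization, -0.06 to 0.14 leaving out 1 library). The interaction in Il1b (adjusted p = 0.12 under the replicate block) was not called with a pseudocount of 0.1, no filter, the stricter filter (which leaves Il1b out), median-of-ratios scaling or the replicate block (0 members each), and leaving out 1 library gave 0 to 2. In WT females against males, 3 members became 1 under the block and 1 to 5 leaving out 1 library. Further interleukin genes called up fell to 19 in females and 14 in males with a filter of 1 RPKM in 6 or more libraries, and to 14 in males by quantile normalization. Over the whole table the interaction gave 60 genes, against 14 with the other pseudocount, 30 unfiltered, 0 with the stricter filter, 106 by quantile normalization, 39 without trend, 0 under the block and 0 to 74 leaving out 1 library. Leaving out 1 library gave 1259 (without male WT 1) to 2481 genes in males (2272), 1367 (without female ARE-Del 3) to 2494 in ARE-Del females against males (2370) and 525 (without male WT 1) to 1116 in WT females against males (1031, and 661 under the block). Il15 differed by 0.07 after quantile normalization. The cause was not tested.

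Same-numbered ARE-Del and WT libraries correlated across genes, in deviations from their group means, at -0.0772, 0.113 and 0.175 in females and -0.0529, -0.171 and 0.116 in males. Differently numbered libraries ran from -0.245 to 0.0991 in females and from -0.176 to 0.23 in males. With 3 libraries in a group these values cannot settle whether the numbers pair the samples. Under the replicate block 8 members were called in females and 7 in males, as without it. Scaling moved the median gene from 0.09 to -0.07 in females and from 0.10 to -0.05 in males (quantile normalization). Relative to the median gene the member changes then ran from 0.10 (Il15ra) to 2.13 (Il18bp) in females and from -0.07 to 1.59 in males. Of genes called in females 82.3% rose as deposited, 51.8% by median-of-ratios and 39.3% by quantile normalization, and in males 90.5%, 55.3% and 44.5%. Low values of Il15 and Il1b limit the precision of their changes.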

Other observations

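Il13ra2, a receptor for IL-13 that acts largely as a decoy, was lower in ARE-Del livers, against the direction of Il18bp and Il1rn. It was listed at 0, 0 and 0.0295 RPKM in female ARE-Del libraries, against 0.671, 0.0177 and 0.51 RPKM in female WT, and at 0, 0.0282 and 0 RPKM in male ARE-Del, against 0.0987, 0.111 and 0.246 RPKM in male WT. The groups were apart in males, and in females 1 WT library fell within the ARE-Del range. An exact permutation of genotype within sex gave p = 0.01 (2-sided, 400 arrangements) for a mean difference of -0.31 in log2(RPKM + 1). It was chosen after its values were seen, and it lay below the filter.

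Of the 44 further genes tested, 2 passed the interaction of sex and genotype, where 0.435% of all tested genes were called up. They were the inflammasome sensor Nlrp1b (female minus male change 0.41 ± 0.06, limma adjusted p = 0.02) and Il21r (0.43 ± 0.08, adjusted p = 0.05 after rounding). Both passed the filter through the female ARE-Del libraries alone, the group where they were high, so a larger female change was favoured by their selection and the 2 calls are given as a description. Nlrp1b averaged 0.663 ± 0.0291 RPKM in female ARE-Del and 0.0583 ± 0.0229 RPKM in female WT, and 0.25 ± 0.0364 RPKM in male ARE-Del and 0.0594 ± 0.0269 RPKM in male WT (SD, n = 3 each). The call of Nlrp1b was lost in 8 of 15 alternatives and that of Il21r in 13 of 15. The Nlrp1 genes are close copies, so its reads may be shared.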
